A study of Mus musculus with 24 samples.

Results

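The data described here are the mRNA levels of 10 transcription factors that direct the lineages of the intestinal epithelium, Pou2f3, Gfi1b, Spib, Sox9, Atoh1, Spdef, Neurog3, Hes1, Hnf4a and Ascl2, in CD45- cells of the ileum, sorted from mice with and without HOIL1. The 10 genes were chosen by name from a table of read counts for 39056 genes, and all 10 were found there under their Ensembl identifiers. They are given as CPM, the count scaled by the total count on genes of the library, and relative to the count of Epcam, a surface protein of epithelial cells. All 10 had counts in at least 3 of the 12 CD45- libraries.

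Stem cells at the base of the intestinal crypt divide and give rise to absorptive enterocytes and to secretory cells. Notch signaling between neighboring cells induces HES1, a repressor that holds down ATOH1, and a cell that escapes this signal keeps ATOH1 and enters a secretory fate. SPDEF then acts in the maturation of goblet and Paneth cells, NEUROG3 starts the enteroendocrine program and POU2F3 is required for tuft cells, the chemosensory cells that release IL-25. ASCL2 and SOX9 act in crypt cells, and HNF4A sustains the genes of differentiated epithelium. GFI1B and SPIB are also blood cell factors, GFI1B in erythroid cells and megakaryocytes and SPIB in B cells and plasmacytoid dendritic cells, and within the epithelium both transcripts are found in tuft cells, with SPIB also required for M cells.

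RNA was sequenced from the CD45+ and CD45- cells of C57BL/6 mice aged 9.0 to 10.3 weeks, with 3 libraries for each of 4 genotypes and 2 fractions. All mice carried Il4ra flanked by loxP sites on both chromosomes. Hoil1+/+Il4ra f/f and Hoil1-/-Il4ra f/f mice had no Cre, and the Hoil1+/+Il4ra ΔIEC and Hoil1-/-Il4ra ΔIEC mice, labeled Il4raflox/flox+Vil1cre, carried a Cre driven by the Vil1 promoter, which is active in intestinal epithelial cells, so that the IL-4 receptor alpha chain is removed from these cells. The Hoil1-/- allele is a partial loss of function that leaves some of the protein's N-terminal domain. The sorted suspension mixed lamina propria cells with part of the epithelial cells, and the CD45- gate kept every live cell without CD45. The labels do not say which mouse gave which library, so the p-values measure the spread between these libraries.

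The CD45- libraries held 6028275 to 68345191 counts on genes, so that 3 counts, taken as the smallest level the depth can show, corresponded to 0.0439 to 0.498 CPM. Intervals and such floors cover counting error only, because the reads were amplified by PCR without molecular identifiers. One library, Hoil1-/-Il4ra f/f replicate 3, is left out of the sample list used in the study. Tests across genes were therefore made on the other 11 CD45- libraries, and values are given for all 12. Rbck1, the gene of HOIL1, was at 0 to 8.71 CPM in the 6 Hoil1-/- and 70.9 to 131 CPM in the 6 Hoil1+/+ libraries. Il4ra was at 42.0 to 187 CPM in all 12 with no separation by genotype, and a count over the whole gene in mixed cells does not check a deletion in epithelium. Summed levels of 7 hematopoietic markers were 1.46 to 49.4 CPM in CD45- against 2247 to 5187 CPM in CD45+ cells. The CD45- libraries were mixtures, with 9 pan-epithelial markers at 1542 to 14284 CPM, 10 endothelial markers at 1529 to 11417 CPM and 8 fibroblast markers at 477 to 11327 CPM in sum, and each of these 27 genes was detected. In such bulk samples, fewer cells of a type and less RNA per cell cannot be told apart.

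Per kilobase of exon, Hnf4a was the most abundant of the 10 factors in CD45- cells, with a median of 74.3 CPM per kb and a range of 36.8 to 125 over 12 libraries. Hes1 followed at a median of 44.7 CPM per kb, then Spdef at 16.01, Sox9 at 13.9 and Atoh1 at 12.3 CPM per kb. The crypt factor Ascl2 was at a median of 4.799 CPM per kb, Neurog3 at 3.40, Spib at 2.20 and Pou2f3 at 1.15 CPM per kb, and Gfi1b had a median of 0. The ranges of all neighbors in this order overlapped. Within libraries, Hnf4a was above Hes1 in 9 of 12, Hes1 above Spdef in 8, Spdef above Sox9 in 8 and Sox9 above Atoh1 in only 4 of 12 libraries, so the middle of this order is not fixed. Atoh1 was above Ascl2 in 10 of 12 and Ascl2 above Neurog3 in 10, while Neurog3 was above Spib in 6 of 12 libraries. The factors also differed in how evenly they were measured. Hnf4a varied 1.85 to 2.02-fold between replicates of a genotype, whereas Pou2f3 varied 4.07 to 17.2-fold in 3 genotypes and in Hoil1+/+Il4ra ΔIEC mice ranged from 1 count in a library, below the floor of 3, to 3.97 CPM.

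**Figure D1:**
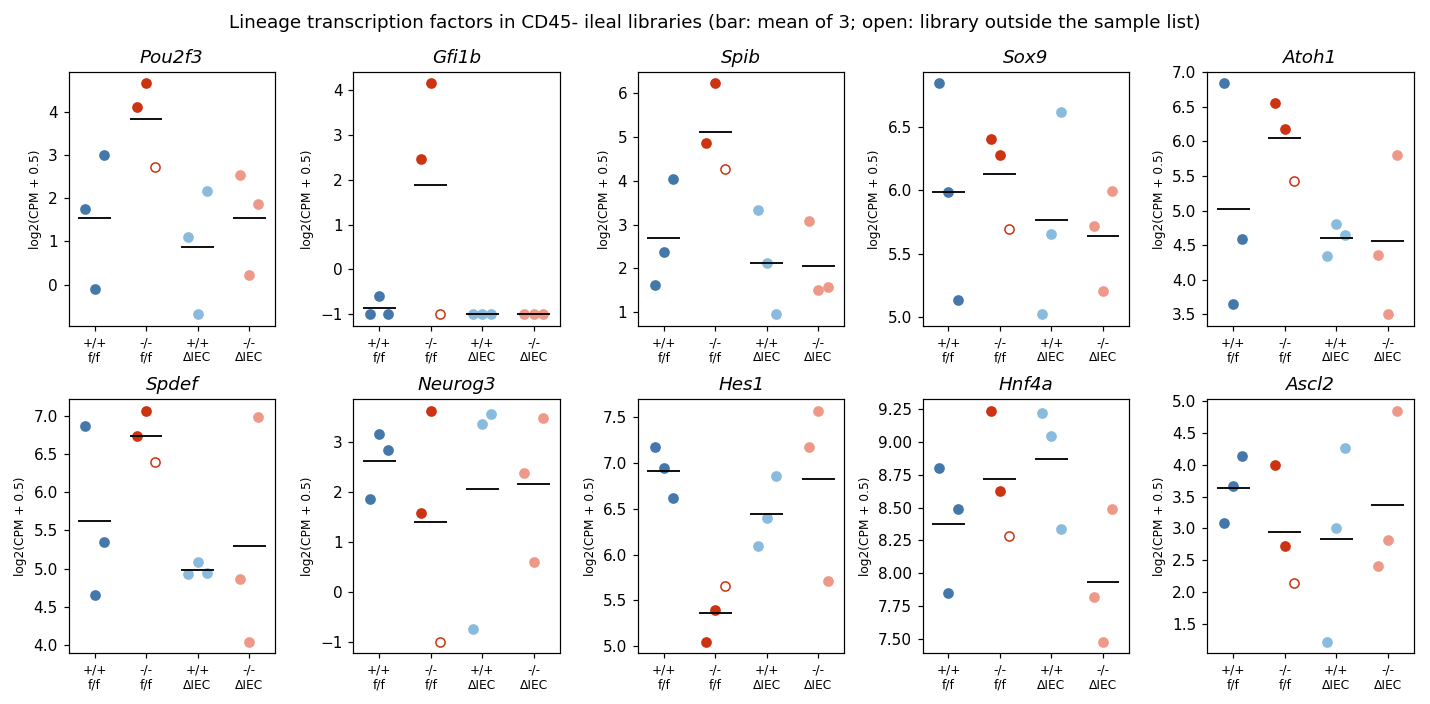
Level of each of the 10 factors as log2(CPM + 0.5) in the 12 CD45- libraries, by Hoil1 genotype (+/+ or -/-) and Il4ra genotype (f/f or ΔIEC). Points are libraries, bars are means of 3, and the open point is the Hoil1-/-Il4ra f/f library outside the sample list. Pou2f3, Gfi1b and Spib are highest, and Hes1 lowest, in the filled Hoil1-/-Il4ra f/f points.

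The first question was whether loss of HOIL1 changed these factors while the IL-4 receptor was intact. In the Il4ra f/f comparison, none of the 10 factors passed an adjusted p of 0.05 in edgeR's quasi-likelihood test, in which 6 of 16453 genes passed (0.0365%). At an unadjusted p under 0.05 there were 4, namely Pou2f3, Gfi1b and Spib, which were higher, and Hes1, which was lower, where 13.1% of all genes reached that level. DESeq2 called 2 of the 10 (Gfi1b and Spib) and 3.73% of all genes, and edgeR's likelihood ratio test 1 (Gfi1b) and 2.13% of all genes. The calls and the unadjusted p of Gfi1b are no support for a difference, because this gene passed the filter on low counts only through the libraries in which it was high. The log2 fold changes of the 9 factors other than Gfi1b had a median of 0.80, with 8 above and 1 below 0. The median of all genes was -0.17, and that of the 9 pan-epithelial markers was 1.499, with all 9 above 0. With the Epcam count as library size, the values of Sox9, Atoh1, Spdef, Neurog3, Hnf4a and Ascl2 turned below 0. In the 2 Hoil1-/-Il4ra f/f libraries of the sample list, 3 factors stood above all 9 other listed libraries (Pou2f3, Gfi1b and Spib), as did 3.45% of all genes tested, and 1 stood below all 9 (Hes1), as did 4.49% of all genes. Gfi1b had to be among these 3, for the same reason. With the Hoil1-/-Il4ra f/f library outside the list added, Pou2f3 and Gfi1b no longer stood above all 9, while Spib stayed above and Hes1 below.

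Pou2f3, required for tuft cells, had levels of 16.8, 24.6 and 6.04 CPM in Hoil1-/-Il4ra f/f mice, the last value being that of the library outside the list. It was at 2.87, 0.432 and 7.43 CPM in Hoil1+/+Il4ra f/f, at 1.65, 0.124 and 3.97 CPM in Hoil1+/+Il4ra ΔIEC and at 5.29, 0.666 and 3.15 CPM in Hoil1-/-Il4ra ΔIEC libraries. The 2 listed Hoil1-/-Il4ra f/f libraries were thus above all others, and the third fell between the Hoil1+/+Il4ra f/f libraries. In f/f mice the log2 fold change of Pou2f3 with loss of HOIL1 was 2.86 (standard error 1.23, adjusted p = 0.371, edgeR). Over all 12 libraries it was 2.46 (standard error 1.204, adjusted p = 0.555, edgeR). Within Hoil1-/- mice, Pou2f3 was lower in ΔIEC than in f/f libraries (log2 fold change -2.99, adjusted p = 0.261, edgeR).

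Spib, which B cells, M cells and tuft cells use, had levels of 28.6, 74.1 and 18.7 CPM in Hoil1-/-Il4ra f/f mice, compared with 2.58, 4.70 and 16.1 CPM in Hoil1+/+Il4ra f/f, 9.53, 3.84 and 1.43 CPM in Hoil1+/+Il4ra ΔIEC and 7.91, 2.35 and 2.49 CPM in Hoil1-/-Il4ra ΔIEC libraries. All 3 Hoil1-/-Il4ra f/f libraries, including the one outside the list, were above the other 9. With the 2 listed libraries alone, 3.45% of all genes tested stood above those 9, and the share with all 3 was not counted. The log2 fold change of Spib was 3.06 with loss of HOIL1 in f/f mice (standard error 0.95, adjusted p = 0.314, edgeR) and -3.82 with deletion of Il4ra in Hoil1-/- mice (standard error 0.98, adjusted p = 0.184, edgeR). Over all 12 libraries these were 2.69 (adjusted p = 0.482, edgeR) and -3.45 (adjusted p = 0.380, edgeR). The adjusted p of Spib ranged from 0.0401 to 0.644 over 17 alternative fits of the f/f comparison and from 0.00419 to 0.458 over those of the Il4ra comparison. Both comparisons use the same Hoil1-/-Il4ra f/f libraries and are not independent.

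Gfi1b was counted in only 3 of 12 CD45- libraries. The 2 listed Hoil1-/-Il4ra f/f libraries held 61 and 521 Gfi1b counts, or 5.04 and 17.3 CPM, and 1 Hoil1+/+Il4ra f/f library held 3 counts. The remaining 9 libraries, among them the Hoil1-/-Il4ra f/f library outside the list, had none. Over the 3 libraries of each group, the level in Hoil1-/-Il4ra f/f was 190-fold that in Hoil1+/+Il4ra f/f (582 against 3 counts, exact 95% interval for counting error 64.7 to 924). It was at least 180-fold that in Hoil1-/-Il4ra ΔIEC and at least 341-fold that in Hoil1+/+Il4ra ΔIEC libraries, taking 3 counts over each of these groups as the floor. Without Hoil1-/-Il4ra f/f replicate 2, which held 521 of the 582 counts, these values were 50.6-fold (interval 16.5 to 252), at least 48.0-fold and at least 90.9-fold, a setting chosen after seeing the data. The adjusted p of Gfi1b was 0.314 in the f/f comparison and 0.184 in the Il4ra comparison within Hoil1-/- mice (edgeR). Gfi1b passed the filter on low counts only through these Hoil1-/-Il4ra f/f libraries and had to differ, and over all 12 libraries it was filtered out.

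The summed level of 10 tuft markers that are not among these factors was 939 and 1436 CPM in the 2 listed Hoil1-/-Il4ra f/f libraries, 100 CPM in the third and 78.9 to 235 CPM in the other 9. The third library therefore had no raised tuft markers and no Gfi1b, while its Spib was still above the 9 libraries of other genotypes. It also had the highest hematopoietic marker sum of the 12 CD45- libraries, at 49.4 CPM. Over 12 libraries the tuft sum had Pearson's r = 0.75 with Pou2f3 (Spearman's rho = 0.69), 0.92 with Gfi1b (rho = 0.62) and 0.68 with Spib (rho = 0.40). Without the 2 farthest libraries r was 0.36, 0.22 and -0.09, so these relations rest on 2 libraries. In the f/f comparison the 9 tuft markers tested had a median log2 fold change of 4.58. Of these, 8 were above 0 and 2 passed an adjusted p of 0.05 (edgeR, 0.0365% of all genes). With deletion of Il4ra in Hoil1-/- mice their median was -4.05, with 1 above 0 and 3 passing (edgeR, 0.0425% of all genes). With all 12 libraries no gene passed in either comparison. Whether these markers passed the filter on low counts only through the 2 listed libraries with the high sum was not examined. The list was also chosen with earlier results of these data known, so its calls are no support for a difference. The Hoil1-/-Il4ra f/f libraries also had 9 pan-epithelial markers at 4289 to 14284 CPM in sum, against 2421 to 8407 CPM in Hoil1+/+Il4ra f/f and 1542 to 7540 CPM in Hoil1-/-Il4ra ΔIEC libraries. The sum in Hoil1+/+Il4ra ΔIEC libraries was similar to that in Hoil1-/-Il4ra f/f, at 4079 to 11828 CPM. In the f/f comparison all 9 of these markers had a log2 fold change above 0, with a median of 1.499, and the 10 endothelial markers had a median of -1.20 with none above 0. The part of this epithelial content in the differences was not tested within that fit, and the factors are therefore also given relative to Epcam below.

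Markers of the blood cells that use Gfi1b or Spib are given beside these values, and their part in the differences was not tested. The 7 hematopoietic markers summed to 18.2 to 49.4 CPM in Hoil1-/-Il4ra f/f and 1.46 to 26.7 CPM in the other 9 CD45- libraries. Over 12 libraries their sum had Pearson's r = 0.65 with Spib (Spearman's rho = 0.72, r = 0.69 without the 2 farthest). Summed levels of 6 B cell markers were 3.22 to 11.9 CPM in Hoil1-/-Il4ra f/f and 0.324 to 9.32 CPM in the other 9 CD45- libraries, against 242 to 1350 CPM in CD45+ cells. The 4 plasmacytoid dendritic cell markers summed to 56.7 to 343 CPM in Hoil1-/-Il4ra f/f and 91.8 to 462 CPM in the other CD45- libraries, but Siglech, the most specific of them, had no count in any. Red cell transcripts were present, with 7 erythroid and megakaryocyte markers at 1804 to 23187 CPM in sum (Pf4 at 0 in all 12). Their highest level was in the third Hoil1-/-Il4ra f/f library, which had no Gfi1b count.

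Upstream sequence of Gfi1b and Spib is shown because these factors were high in the same libraries. The 250 bases before each start site were taken from RefSeq (GRCm38.p6), where 7 of the 10 factors had an entry. Both genes lie on the minus strand, at chr2:28621983-28622232 for Gfi1b and chr7:44532072-44532321 for Spib. Capitals mark each E-box, CANNTG on either strand, the motif of basic helix-loop-helix factors such as ATOH1, NEUROG3 and ASCL2.
Gfi1b: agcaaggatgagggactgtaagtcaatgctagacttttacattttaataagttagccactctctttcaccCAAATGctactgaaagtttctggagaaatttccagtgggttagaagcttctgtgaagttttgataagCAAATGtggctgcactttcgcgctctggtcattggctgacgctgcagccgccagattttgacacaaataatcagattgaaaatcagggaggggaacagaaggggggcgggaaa
Spib: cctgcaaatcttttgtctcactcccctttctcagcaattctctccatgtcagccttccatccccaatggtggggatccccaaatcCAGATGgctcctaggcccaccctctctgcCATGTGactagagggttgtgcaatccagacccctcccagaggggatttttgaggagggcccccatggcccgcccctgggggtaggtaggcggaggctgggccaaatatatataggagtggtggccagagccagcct

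Both windows held 2 E-boxes, at 180 and 113 bases before the start of Gfi1b and 165 and 136 bases before that of Spib. An E-box is common, being in 66.2% of 32851 promoters of this length. None of the 8 windows of the 7 factors held the octamer ATGNAAAT (5.03% of promoters), the ETS motif CCGGAAG (6.91%), the SOX motif ACAATG (10.7%), the RBPJ motif GTGGGAA (5.42%), the HNF4 motif CAAAGTCCA (0.384%) or the GFI motif AAATCAC (2.75%).

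Atoh1 starts the secretory program and Spdef acts in goblet and Paneth cells. Atoh1 was at 93.4, 71.6 and 42.7 CPM in Hoil1-/-Il4ra f/f, at 114, 12.04 and 23.5 CPM in Hoil1+/+Il4ra f/f, at 19.8, 27.6 and 24.6 CPM in Hoil1+/+Il4ra ΔIEC and at 20.0, 10.8 and 55.6 CPM in Hoil1-/-Il4ra ΔIEC libraries. Spdef was at 106, 134 and 84.1 CPM, 116, 24.7 and 40.3 CPM, 30.0, 33.5 and 30.2 CPM, and 28.7, 15.995 and 127 CPM in the same order. The first Hoil1+/+Il4ra f/f library was as high in both as the Hoil1-/-Il4ra f/f libraries, so the groups overlapped. The log2 fold change with loss of HOIL1 in f/f mice was 0.94 for Atoh1 (standard error 0.87, adjusted p = 0.613, edgeR) and 1.21 for Spdef (standard error 0.82, adjusted p = 0.482, edgeR). With deletion of Il4ra in Hoil1-/- mice it was -1.72 for Atoh1 (adjusted p = 0.318, edgeR) and -1.26 for Spdef (adjusted p = 0.405, edgeR). The 8 goblet markers summed to 9810 to 49013 CPM in Hoil1-/-Il4ra f/f and 5345 to 34701 CPM in Hoil1+/+Il4ra f/f libraries, which overlapped likewise.

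The upstream windows of Atoh1 and Spdef, which were both high in the same 5 libraries, are shown as well, from chr6:64728875-64729124 on the plus strand for Atoh1 and chr17:27728952-27729201 on the minus strand for Spdef (RefSeq, GRCm38.p6). They were the 2 windows of the 8 without an E-box or any other motif searched, and thus carry no capitals.
Atoh1: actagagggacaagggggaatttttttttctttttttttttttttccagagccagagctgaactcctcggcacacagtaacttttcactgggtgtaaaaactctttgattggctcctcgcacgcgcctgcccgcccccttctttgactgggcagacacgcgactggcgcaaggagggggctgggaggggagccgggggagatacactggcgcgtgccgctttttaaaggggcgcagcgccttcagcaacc
Spdef: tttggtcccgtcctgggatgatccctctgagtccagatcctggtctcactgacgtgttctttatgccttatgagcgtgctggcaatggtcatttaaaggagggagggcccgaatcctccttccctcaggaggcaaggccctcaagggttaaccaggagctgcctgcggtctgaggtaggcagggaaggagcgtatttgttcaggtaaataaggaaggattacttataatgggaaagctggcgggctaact

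Neurog3, the endocrine progenitor factor, was among the least evenly measured. It was at 2.48, 11.9 and 0 CPM in Hoil1-/-Il4ra f/f, at 3.15, 8.53 and 6.65 CPM in Hoil1+/+Il4ra f/f, at 0.0917, 9.90 and 11.3 CPM in Hoil1+/+Il4ra ΔIEC and at 4.72, 1.02 and 10.8 CPM in Hoil1-/-Il4ra ΔIEC libraries. All 4 genotypes overlapped. Its log2 fold change in f/f mice was 0.52 (standard error 1.33, adjusted p = 0.889, edgeR) and turned to -0.05 over all 12 libraries, and without Hoil1-/-Il4ra f/f replicate 2 it was -1.01. The 8 enteroendocrine markers summed to 936 to 1204 CPM in Hoil1-/-Il4ra f/f and to 1353 to 1628 CPM in Hoil1+/+Il4ra f/f libraries.

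Hes1, the Notch-induced repressor, was the 1 factor of the 9 with a log2 fold change below 0 in the f/f comparison. It was at 32.7, 41.5 and 50.0 CPM in Hoil1-/-Il4ra f/f libraries, and at 144, 123 and 98.1 CPM in Hoil1+/+Il4ra f/f, 67.6, 84.1 and 115 CPM in Hoil1+/+Il4ra ΔIEC and 144, 190 and 52.1 CPM in Hoil1-/-Il4ra ΔIEC libraries. All 3 Hoil1-/-Il4ra f/f libraries were below the other 9, although the gap to the lowest of these was small. With the 2 listed libraries alone, 4.49% of all genes tested stood below those 9, and the share with all 3 was not counted. The log2 fold change of Hes1 was -1.46 in the f/f comparison (standard error 0.46, adjusted p = 0.317, edgeR), with adjusted p between 0.0646 and 0.764 over 17 alternative fits. Deletion of Il4ra in Hoil1-/- mice gave 1.55 (standard error 0.47, adjusted p = 0.205, edgeR). Over all 12 libraries these were -1.36 (adjusted p = 0.378, edgeR) and 1.45 (adjusted p = 0.380, edgeR). Hes1 is not an epithelial gene alone. Its level in CD45- libraries fell with that of Epcam (Pearson's r = -0.75, Spearman's rho = -0.75, n = 12 libraries, r = -0.63 without the 2 farthest). It rose with the endothelial markers (r = 0.66, rho = 0.70, r = 0.42 without the 2 farthest). It also rose with the 7 smooth muscle and pericyte markers (r = 0.72, rho = 0.67, r = 0.48 without the 2 farthest). These libraries share their depth and cell mixture.

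Of 23 other genes of the Notch pathway, 22 were tested, and none passed an adjusted p of 0.05 in either comparison. In the f/f comparison 3 of the 22 were above 0 and the median log2 fold change was -0.74, against -0.17 over all genes, with 4 at an unadjusted p under 0.05 (13.1% of all genes). With deletion of Il4ra in Hoil1-/- mice, 20 of 22 were above 0 with a median of 0.91, against 0.17 over all genes, and 9 had an unadjusted p under 0.05 (17.7% of all genes). Examples, chosen after their values were seen, are the Notch target Nrarp at -1.13 (adjusted p = 0.361, edgeR) and the ligand Jag1 at -1.65 (adjusted p = 0.371, edgeR) in the f/f comparison. Notch3, a receptor of pericytes and smooth muscle, was at -2.14 there (adjusted p = 0.279, edgeR), and the 7 smooth muscle and pericyte markers had a median of -1.61 with none above 0.

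Sox9 and Ascl2, the crypt factors, did not follow the genotypes. Sox9 was at 84.3, 77.1 and 51.2 CPM in Hoil1-/-Il4ra f/f, at 114, 62.7 and 34.5 CPM in Hoil1+/+Il4ra f/f, at 31.99, 50.0 and 97.7 CPM in Hoil1+/+Il4ra ΔIEC and at 52.0, 36.4 and 63.4 CPM in Hoil1-/-Il4ra ΔIEC libraries. Ascl2 was at 15.5, 6.07 and 3.90 CPM, 8.03, 12.3 and 17.1 CPM, 1.83, 7.55 and 18.8 CPM, and 4.84, 6.53 and 28.4 CPM in the same order. The range of each group overlapped that of every other group. In f/f mice the log2 fold change with loss of HOIL1 was 0.42 for Sox9 (standard error 0.52, adjusted p = 0.722, edgeR) and 0.08 for Ascl2 (standard error 0.92, adjusted p = 0.986, edgeR). In Hoil1-/- mice, deletion of Il4ra gave -0.89 for Sox9 (adjusted p = 0.363, edgeR) and 0.10 for Ascl2 (adjusted p = 0.975, edgeR). The 7 stem cell markers summed to 1518 to 2449 CPM in Hoil1-/-Il4ra f/f and 1491 to 2425 CPM in Hoil1+/+Il4ra f/f libraries.

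Hnf4a, the enterocyte factor, was at 604, 394 and 311 CPM in Hoil1-/-Il4ra f/f, at 445, 230 and 359 CPM in Hoil1+/+Il4ra f/f, at 598, 529 and 323 CPM in Hoil1+/+Il4ra ΔIEC and at 225, 178 and 358 CPM in Hoil1-/-Il4ra ΔIEC libraries. The lowest 2 of the 12 libraries were thus Hoil1-/-Il4ra ΔIEC. Its log2 fold change with loss of HOIL1 was 0.80 in f/f mice (standard error 0.48, adjusted p = 0.444, edgeR) and -1.19 in ΔIEC mice (standard error 0.44, adjusted p = 0.603, edgeR). The difference between these effects, the interaction, was -1.99 (standard error 0.65, adjusted p = 0.161, edgeR), with adjusted p from 0.0356 to 0.423 over 17 alternative fits. In Hoil1-/- mice, deletion of Il4ra gave -1.19 (standard error 0.48, adjusted p = 0.254, edgeR). Hnf4a followed Epcam closely (Pearson's r = 0.93, Spearman's rho = 0.91, n = 12, r = 0.87 without the 2 farthest) and ran against the endothelial markers (r = -0.94, rho = -0.97, r = -0.92 without the 2 farthest). The part of the epithelial content in these differences in CPM was not tested.

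**Figure D2:**
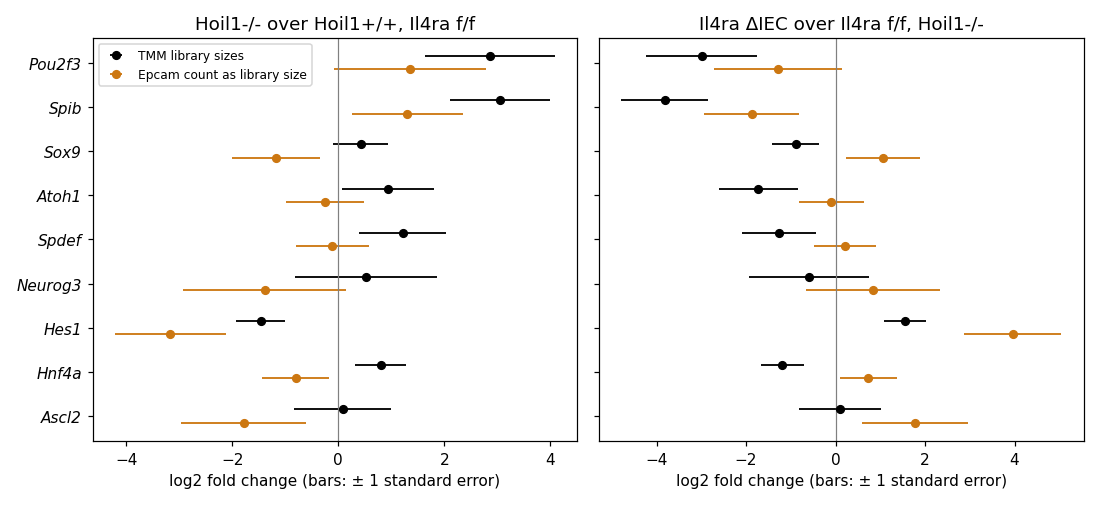
Log2 fold changes of the 9 factors other than Gfi1b, with bars of 1 standard error, for loss of HOIL1 in Il4ra f/f mice (left) and for deletion of Il4ra in Hoil1-/- mice (right), in 11 CD45- libraries. Black points use TMM library sizes and orange points the Epcam count as library size. Spib and Pou2f3 are on the right in the left panel and on the left in the right panel on both scales. Sox9, Spdef, Neurog3 and Hnf4a change side in both panels when Epcam is the library size, and Atoh1 and Ascl2 in the left panel only.

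The other comparisons showed less. With loss of HOIL1 in ΔIEC mice, none of the 10 factors passed, as 1 of 16453 genes did (0.00608%), and 1 factor, Hnf4a, had an unadjusted p under 0.05 (edgeR, with 7.66% of all genes at that level and 0 factors called by DESeq2). The 9 factors other than Gfi1b ranged from -1.19 for Hnf4a to 0.67 for Spdef (adjusted p = 0.855, edgeR), with Pou2f3 at 0.53 and Spib at -0.52 (adjusted p = 0.941 and 0.918, edgeR). With deletion of Il4ra in Hoil1+/+ mice, no factor passed and none had an unadjusted p under 0.05 (edgeR, 0 called by DESeq2), with 0.0% of all genes called and 4.4% at an unadjusted p under 0.05. These log2 fold changes ranged from -0.85 for Atoh1 to 0.80 for Hnf4a (adjusted p = 0.967 and 0.876, edgeR).

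With deletion of Il4ra in Hoil1-/- mice, again none of the 10 factors passed (0.0425% of all genes called, edgeR), while 5 had an unadjusted p under 0.05, as did 17.7% of all genes. These were Pou2f3, Gfi1b, Spib and Hnf4a, which were lower, and Hes1, which was higher. DESeq2 called 3 of the 10 and 7.18% of all genes, and edgeR's likelihood ratio test 2 of the 10 and 3.99% of all genes, Gfi1b being among both. The values of Gfi1b are no support for a difference here either, for the reason given above. The 9 factors other than Gfi1b had a median of -1.19 in this comparison, with 2 above and 7 below 0, against 0.17 over all genes. The 9 pan-epithelial markers had a median of -1.74, with 0 above 0. With the Epcam count as library size, the values of Sox9, Spdef, Neurog3 and Hnf4a turned above 0. For the interaction, no factor passed (0.0% of all genes called, edgeR) and 3 had an unadjusted p under 0.05, as did 20.7% of all genes, with a log2 difference of -3.58 for Spib (standard error 1.27, adjusted p = 0.179), 1.78 for Hes1 (standard error 0.60, adjusted p = 0.170) and the value given above for Hnf4a. DESeq2 called 2 of them, Spib and Hnf4a, and 8.91% of all genes. The interaction was -2.33 for Pou2f3 (standard error 1.64, adjusted p = 0.436, edgeR) and could not be estimated for Gfi1b, with no count in either ΔIEC group.

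None of the 32 other transcription factors of the intestinal epithelium passed an adjusted p of 0.05 in these comparisons. In f/f mice 18 of 32 had a log2 fold change above 0 with loss of HOIL1, with a median of 0.07 against -0.17 over all genes, and 6 had an unadjusted p under 0.05 (edgeR), as did 13.1% of all genes. In ΔIEC mice 9 of 32 were above 0 with loss of HOIL1, with a median of -0.54 against 0.06 over all genes, and 8 had an unadjusted p under 0.05, as did 7.66% of all genes. With deletion of Il4ra in Hoil1-/- mice, 9 of 32 were above 0, with a median of -0.57 against 0.17 over all genes and 11 at an unadjusted p under 0.05, as were 17.7% of all genes. The 9 pan-epithelial markers had medians of -1.28 and -1.74 in the last 2 of these comparisons, and their part was not tested.

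The second view sets each factor against Epcam, which was at 1324, 1189 and 552 CPM in Hoil1-/-Il4ra f/f, 788, 282 and 518 CPM in Hoil1+/+Il4ra f/f, 1128, 891 and 555 CPM in Hoil1+/+Il4ra ΔIEC and 428, 195 and 680 CPM in Hoil1-/-Il4ra ΔIEC libraries. Its lowest level was thus in a Hoil1-/-Il4ra ΔIEC library and its highest in a Hoil1-/-Il4ra f/f library. Hnf4a was the steadiest factor on this scale, at 332 to 912 counts per 1000 Epcam counts. The standard deviation of its log2 ratio to Epcam over 12 libraries was 0.38, against 0.56 for its log2 CPM. The spread of Atoh1 fell from 1.10 to 0.76 and that of Spdef from 1.07 to 0.82 in the same way, while that of Hes1 rose from 0.80 to 1.54 and that of Sox9 from 0.59 to 0.87.

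Relative to Epcam, Pou2f3 was at 12.7, 20.7 and 10.96 counts per 1000 Epcam counts in Hoil1-/-Il4ra f/f libraries. It was at 3.64, 1.53 and 14.3 in Hoil1+/+Il4ra f/f, at 1.46, 0.139 and 7.14 in Hoil1+/+Il4ra ΔIEC and at 12.4, 3.42 and 4.64 per 1000 in Hoil1-/-Il4ra ΔIEC libraries. On this scale the third Hoil1-/-Il4ra f/f library stood close to the other 2, and in both Il4ra genotypes the Hoil1 groups overlapped through the highest Hoil1+/+ library. Spib was at 21.6, 62.4 and 33.8 per 1000 in Hoil1-/-Il4ra f/f and 3.28, 16.6 and 31.0 per 1000 in Hoil1+/+Il4ra f/f libraries. It was at 8.45, 4.30 and 2.58 in Hoil1+/+Il4ra ΔIEC and 18.5, 12.1 and 3.66 per 1000 in Hoil1-/-Il4ra ΔIEC libraries. The groups of Spib overlapped in both Il4ra genotypes.

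Spdef was at 80.0, 113 and 152 counts per 1000 Epcam counts in Hoil1-/-Il4ra f/f and 148, 87.4 and 77.7 in Hoil1+/+Il4ra f/f libraries. In ΔIEC mice it was at 67.0, 82.0 and 186 per 1000 in Hoil1-/- and 26.6, 37.6 and 54.5 per 1000 in Hoil1+/+ libraries, with no overlap. Atoh1 was likewise at 46.7, 55.6 and 81.7 per 1000 in Hoil1-/-Il4ra ΔIEC and 17.6, 31.0 and 44.2 per 1000 in Hoil1+/+Il4ra ΔIEC libraries, without overlap. With 3 libraries against 3 an exact test cannot go below p = 0.1, so these separations within 1 Il4ra genotype were not tested alone. Of all 16453 genes, 15.7% separated in this direction relative to Epcam, and 2 of the 10 factors did.

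**Figure D3:**
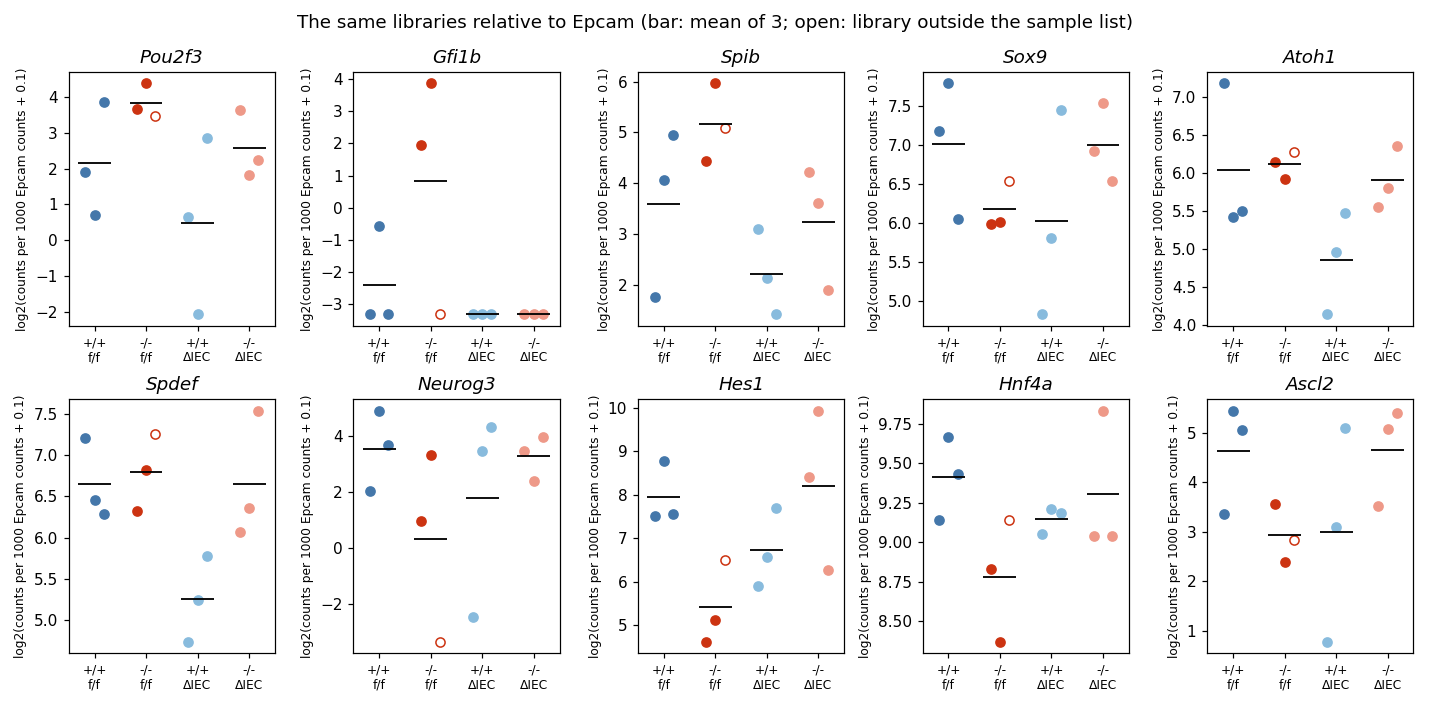
The 10 factors relative to Epcam, as log2(counts per 1000 Epcam counts + 0.1), in the 12 CD45- libraries by genotype. Points are libraries, bars are means of 3, and the open point is the library outside the sample list. Atoh1 and Spdef do not overlap between the Hoil1 genotypes in ΔIEC mice, as was so for 15.7% of all genes in this direction, Spib and Pou2f3 overlap, and Hes1 has its lowest mean in Hoil1-/-Il4ra f/f mice.

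An exact permutation test, two-sided, was made for each of the 10 factors on the difference in mean log2 ratio to Epcam between Hoil1-/- and Hoil1+/+ libraries, averaged over the Il4ra genotypes, with Hoil1 labels permuted within each Il4ra genotype (12 libraries, 400 splits, smallest possible p = 0.005). None of the 10 had an exact p under 0.05. The difference was 1.93 for Pou2f3 (exact p = 0.055), 1.31 for Spib (exact p = 0.065) and 0.78 for Spdef (exact p = 0.065). That of Gfi1b was 2.67 (exact p = 0.065), but this size is set by the pseudocount of 0.5 counts, since 9 libraries had no Gfi1b count, and is no measured ratio. In ΔIEC mice, where no library had a Gfi1b count, its difference of 1.54 came from the Epcam counts alone. The exact p-values of Gfi1b are therefore no support for a difference. For Pou2f3 the difference was 1.69 in f/f and 2.18 in ΔIEC mice, the latter falling to 0.85 without Hoil1+/+Il4ra ΔIEC replicate 2, which held 1 Pou2f3 count. For Spib it was 1.57 and 1.05, the former falling to 0.65 without Hoil1+/+Il4ra f/f replicate 1. For Spdef it was 1.41 in ΔIEC but 0.15 in f/f mice, where it turned to -0.077 on the 11 listed libraries and to -0.032 without Hoil1+/+Il4ra f/f replicate 3. The difference was 0.56 for Atoh1 (exact p = 0.19), 0.07 for Sox9 (exact p = 0.92), -0.01 for Ascl2 (exact p = 0.99), -0.24 for Hnf4a (exact p = 0.315), -0.53 for Hes1 (exact p = 0.565) and -0.72 for Neurog3 (exact p = 0.65). These p-values are not adjusted over the 10 tests. On the 11 listed libraries Gfi1b had an exact p = 0.015, and with a pseudocount of 5 counts in place of 0.5 Gfi1b had an exact p = 0.02 and Spib an exact p = 0.045. Both values of Gfi1b carry the limit given above. Single libraries decided which factors fell below 0.05. Without Hoil1+/+Il4ra f/f replicate 1, Atoh1 had an exact p = 0.005, the smallest possible, and Spdef an exact p = 0.02. Without Hoil1+/+Il4ra f/f replicate 3, Pou2f3 had an exact p = 0.02 and Spib an exact p = 0.03. Without Hoil1+/+Il4ra ΔIEC replicate 3 the exact p of Pou2f3 was 0.015, without Hoil1-/-Il4ra ΔIEC replicate 3 that of Spib was 0.025, without Hoil1-/-Il4ra ΔIEC replicate 2 that of Hnf4a was 0.015 and without Hoil1-/-Il4ra f/f replicate 1 that of Spdef was 0.03. Hes1 relative to Epcam differed by -2.53 in f/f and by 1.47 in ΔIEC mice, in opposite directions.

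The CD45+ fraction is the background for the question of which factors lay in cells without CD45. It does not tell epithelium from other CD45- cells, since 9 of 10 endothelial and 8 of 8 fibroblast markers were also higher in CD45- cells. In 21 libraries of the sample list, 7 of the 10 factors were higher in CD45- than in CD45+ cells and 2 were lower, where 49.6% of 18778 genes passed the test (edgeR, adjusted p under 0.05). Hnf4a was at 178 to 604 CPM in CD45- and 1.23 to 21.6 CPM in CD45+ libraries, a log2 difference of 5.20 (standard error 0.52, adjusted p = 5.75e-07, edgeR). Sox9, Atoh1, Spdef, Neurog3 and Pou2f3 were at 0 in 6, 9, 8, 11 and 9 of the 12 CD45+ libraries and no higher than 1.81 CPM in any, and Ascl2 was at 0 in 8, with its highest level of 8.16 CPM in a Hoil1-/-Il4ra f/f library outside the sample list. The adjusted p of these 6 factors was between 6.03e-06 for Ascl2 and 0.00371 for Pou2f3 (edgeR). Epcam itself was at 7.56 to 63.3 CPM in CD45+ libraries.

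Spib went the other way, at 1.43 to 74.1 CPM in CD45- and 6.60 to 136 CPM in CD45+ libraries, a log2 difference of -2.34 (standard error 0.43, adjusted p = 2.58e-04, edgeR). Gfi1b was at 0 to 7.70 CPM in CD45+ libraries, with counts in 6 of 12, and was also called lower in CD45- cells (adjusted p = 0.0223, edgeR). That call rests on single libraries, since the adjusted p was 0.0712 and 0.0635 without either of the 2 Hoil1-/-Il4ra f/f libraries of the CD45- fraction, and 1.00 without CD45+ Hoil1-/-Il4ra f/f replicate 2 or CD45+ Hoil1+/+Il4ra ΔIEC replicate 3. Hes1 was the factor with no called difference between the fractions (log2 difference -0.37, standard error 0.22, adjusted p = 0.188, edgeR). It was at 32.7 to 190 CPM in CD45- and 41.8 to 214 CPM in CD45+ libraries. Spib and Hnf4a also had counts in all 12 libraries of each fraction. The 10 tuft markers summed to 442 to 770.5 CPM in CD45+ libraries, so this list is not specific to epithelium. Among the 32 other epithelial factors, 25 were higher and 5 lower in CD45- cells. Neurod1 and Nkx2-2 of the endocrine lineage, Cdx2 and Elf3 were among the 25, and Xbp1, Prdm1, Gfi1, Bhlha15 and Maf, which plasma cells, lymphocytes or myeloid cells also use, were the 5. Of the 23 Notch genes, 12 were higher in CD45- cells, among them Dll1, Dll4 and Jag1, and 5 were lower, among them Notch2 and Rbpj.

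**Figure D4:**
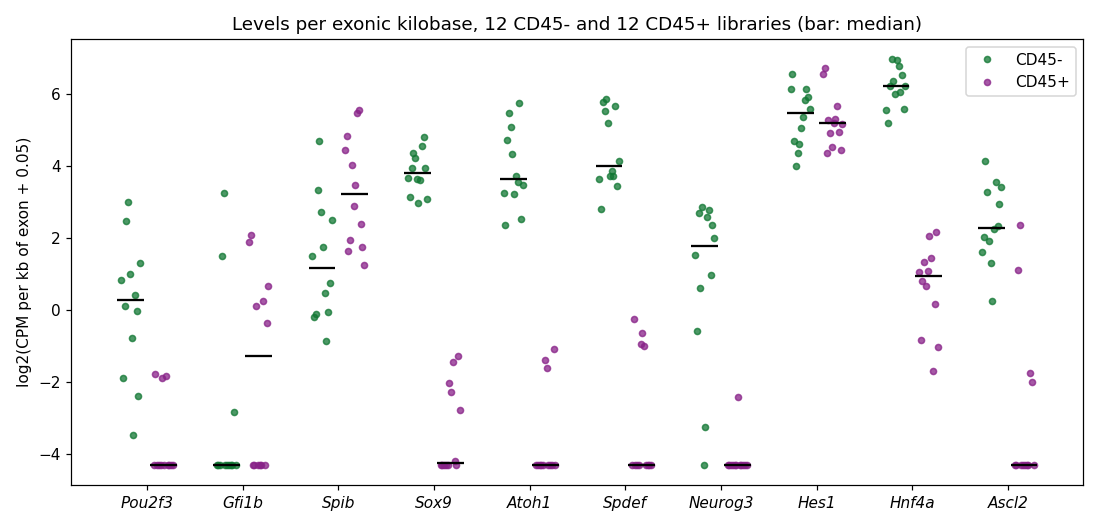
Level of the 10 factors as log2(CPM per kb of exon + 0.05) in 12 CD45- (green) and 12 CD45+ (purple) libraries, with bars at the medians. Hes1 is at similar levels in both fractions, Spib and Gfi1b have the higher median in CD45+ cells, Hnf4a is lower in CD45+ cells but counted in all 12, and the other 6 factors have CD45+ medians at or near the bottom of the scale.

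For each factor, the 5 genes with the most similar pattern over the 12 CD45- libraries were found among 13920 genes with a mean of at least 1 CPM (Pearson's r of log2 TMM-scaled CPM plus 0.5). These are descriptions of libraries that share depth, cell mixture and genotype. The genes nearest to Spib were Plcb2 (r = 0.94), Snrnp25, Alox5, Rgs13 and Sucnr1 (r = 0.89), of which Plcb2, Alox5, Rgs13 and Sucnr1 are transcripts of tuft cells. Spib also ran with the summed hematopoietic markers (r = 0.65) and was higher in CD45+ cells, and which cells held it was not tested. Without the 3 Hoil1-/-Il4ra f/f libraries, r with Spib was 0.78 for Plcb2, 0.72 for Alox5, 0.66 for Rgs13 and 0.54 for Sucnr1 over 9 libraries. Pou2f3 was nearest to Strip2 (r = 0.93, and 0.84 over those 9 libraries), Rgs13 (r = 0.89 and 0.75), Rpl36a-ps3, Impad1 and Mptx1. Gfi1b, with counts in 3 libraries, gave Krt27, Ighv9-4, F930017D23Rik, Rgs22 and Ptpn18, and among the 9 libraries, where only 1 had any Gfi1b count, r was between -0.19 and 0.17 for the last 3.

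Spdef was nearest to Spink4 (r = 0.98), Fkbp11, Fxyd3, Agr2 (r = 0.96) and Atoh1 (r = 0.95), and Atoh1 was nearest to Spdef, Appl2, Spink4, Rab15 and Galnt7. Spink4 and Agr2 are goblet cell genes, and with the 3 Hoil1-/-Il4ra f/f libraries left out r with Spdef was 0.97 for Spink4 and 0.96 for Agr2. Hnf4a was nearest to Dhrs11 (r = 0.99), Ugt2b34, Spint1, Trim31 and Sept5, all above r = 0.97. Hes1 was nearest to Cxcl10 (r = 0.94), Frg2f1, Tob2, Pde12 and Cep290, and Cxcl10, an interferon-induced chemokine, kept r = 0.92 over the 9 libraries. The nearest genes of Sox9 (1700037H04Rik, Nbas, Myo5c, Eri1 and Atp2c2), of Neurog3 (Dyrk3, Usp30, Syn2, Zfp825 and Dph6) and of Ascl2 (Rtcb, Actr8, Gm10073, Kcnb2 and Krt87) had r between 0.82 and 0.91.

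Among the 10 factors, Atoh1 and Spdef were the most alike in CPM. The libraries fell into 7 with Spdef at 15.995 to 40.3 CPM and 5 with Spdef at 84.1 to 134 CPM, a split seen after the values were known. Pearson's r of Atoh1 and Spdef was 0.86 among the 7 (Spearman's rho = 0.86) and 0.42 among the 5 (rho = 0.20), fewer than 6 libraries, and the likeness values of Atoh1 and Spdef above rest in part on the gap between these sets of libraries. Spib and Pou2f3 followed each other less closely (r = 0.73, rho = 0.66, r = 0.62 without the 2 farthest). Hes1 ran against Spdef (r = -0.70, rho = -0.69, r = -0.59 without the 2 farthest) and Spib (r = -0.68, rho = -0.66, r = -0.41 without the 2 farthest). Neurog3 and Ascl2 showed no close relation to Epcam (r = 0.03 and -0.10).

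**Figure D5:**
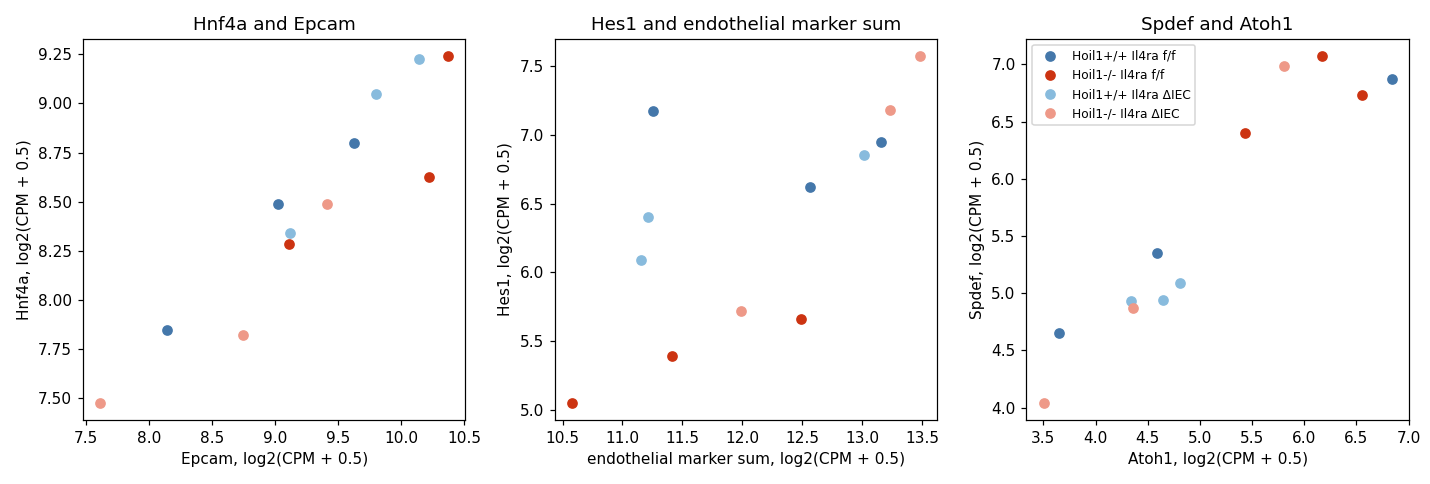
Hnf4a against Epcam (left), Hes1 against the summed endothelial markers (middle) and Spdef against Atoh1 (right), each as log2(CPM + 0.5) in the 12 CD45- libraries, colored by genotype. Hnf4a rises with Epcam (r = 0.93), Hes1 rises with the endothelial sum (r = 0.66) and Spdef and Atoh1 are both high in 5 libraries and low in 7.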

How the data were processed

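The authors deposited a table of read counts per gene, made from poly-A-selected, strand-selected libraries aligned to mm10 with STAR and counted with featureCounts (versions not given in the sources used here). The deposited counts were used unchanged. Gene symbols for 38872 of 39056 identifiers were matched to GENCODE. The members and lists were chosen with earlier results of these data known. Genes named beyond the 10 factors were the 5 with the highest correlation to each factor and list members that passed the test, and others are said to have been chosen after their values were seen.

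Comparisons between genotypes used edgeR 4.0.16 (R 4.3.3), with the quasi-likelihood test, TMM scaling, 4 group means, filterByExpr (minimum count 10, minimum total 15) and Benjamini-Hochberg adjustment over all genes tested. The fractions were compared with 8 group means in 21 libraries. Alternatives were all libraries, RLE scaling, the Epcam count as library size, DESeq2 1.42.0, edgeR's likelihood ratio test, no filter and each library left out. Ratios to Epcam used a pseudocount of 0.5 counts. In simulated data for the f/f comparison on 15554 genes, the quasi-likelihood test recovered 19 of 100 genes changed 4-fold and 76 of 100 changed 16-fold, with 3 false calls. The changed genes were drawn only from genes with higher counts, so this recovery does not cover factors with few counts. CPM is relative to all gene counts of a library, so a change in cell mixture moves it.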

Additional observations from a re-analysis of the deposited data

How the results depend on the processing

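Of the 10 factors, DESeq2 called 2 in the f/f comparison (Gfi1b and Spib), 3 with deletion of Il4ra in Hoil1-/- mice (Gfi1b, Spib and Hes1) and 2 for the interaction (Spib and Hnf4a). edgeR's likelihood ratio test called 1 (Gfi1b) and 2 (Gfi1b and Spib) in the first comparisons. Over all genes, DESeq2 called 613 and the likelihood ratio test 350 in the f/f comparison against 6 in the quasi-likelihood test, and 1182 and 656 against 7 with deletion of Il4ra in Hoil1-/- mice; with all 12 libraries no gene was called. With Epcam as library size the interaction called 1 factor (Hes1) and 7202 genes, 7139 of them higher, and the median of all genes moved to -1.94 in the f/f comparison and 2.31 with deletion of Il4ra in Hoil1-/- mice. Leaving out single libraries gave 0 to 1 factors for the interaction (Hnf4a, adjusted p = 0.0471 without Hoil1+/+Il4ra ΔIEC replicate 3, edgeR), 8 to 9 between fractions and 0 to 2 relative to Epcam. The test relative to Epcam gave 1 factor on 11 libraries and 2 with a pseudocount of 5 counts, Gfi1b being among both and no support for a difference.

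With Epcam as library size the f/f log2 fold change turned to -1.17 for Sox9, -0.24 for Atoh1, -0.11 for Spdef, -1.39 for Neurog3, -0.81 for Hnf4a and -1.78 for Ascl2. Deletion of Il4ra in Hoil1-/- mice turned to 1.06 for Sox9, 0.21 for Spdef, 0.84 for Neurog3 and 0.73 for Hnf4a. In ΔIEC mice loss of HOIL1 turned to 0.20 for Hnf4a and 1.16 for Spib, deletion of Il4ra in Hoil1+/+ mice to -0.28 for Hnf4a and the interaction to 1.01 for Hnf4a. All 12 libraries turned the f/f values of Neurog3 to -0.051 and Ascl2 to -0.28. Relative to Epcam, 11 libraries gave -0.017 for Sox9, 0.14 for Neurog3 and 0.0095 for Ascl2, and the pan-epithelial denominator gave 0.014 for Ascl2. The causes were not tested.

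With single libraries left out, f/f values ran from -1.01 to 1.24 for Neurog3 and -0.75 to 0.61 for Ascl2, and those of Il4ra deletion in Hoil1-/- mice from -1.59 to 0.93 and -1.19 to 0.93. Loss of HOIL1 in ΔIEC mice ran from -0.75 to 1.13 for Spdef, -0.13 to 1.37 for Pou2f3 and -1.33 to 0.51 for Spib, and Il4ra deletion in Hoil1+/+ mice from -1.32 to 0.79 for Atoh1. Relative to Epcam, Sox9 ran from -0.23 to 0.43, Neurog3 from -1.88 to 0.14 and Ascl2 from -0.57 to 0.52. No paired analysis was possible because the labels give no replicate numbers shared between groups. The comparison of fractions therefore treated its libraries as unpaired, although both fractions may come from the same mice.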
